A study of Mus musculus with 2 samples.

Results

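Itga1-negative NK cells are natural killer cells without a detected transcript of Itga1, the gene of the integrin CD49a. They were chosen by their own UMI counts (unique molecular identifiers, 1 per captured transcript). A barcode had to have at least 200 genes, under 10% of UMIs from mitochondrial genes, a sum of Ncr1 and Klrb1c of at least 2, a sum of Cd3e and Cd3d of at most 1, a sum of C1qa, C1qb and C1qc under 20, and Itga1 at 0. The gate held 721 of 18112 kept barcodes. Of these, 504 were among 8697 barcodes of the knockout library and 217 among 9415 of the control library. The levels of these gate genes are therefore a description and not a result.

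The study asked what the immune cells of melanomas that lack FDPS look like. FDPS, farnesyl diphosphate synthase, makes the isoprenoid building blocks of the mevalonate pathway. Viable CD45+ cells, the blood-derived cells of the host, were sorted from B16-F10 tumours, a mouse melanoma cell line grown under the skin, after digestion with collagenase D and DNase I, and sequenced on the 10X Genomics droplet platform. The genotype label is FDPS-knockout (KO) for the knockout library and WT for the control library, both from B16-F10 tumours at day 14, with 3 tumours per group. The labels give B16-F10 as the tissue and melanoma as the cell type, although the sort took immune cells, so the genotype is read here as that of the tumour and not of the NK cells. Host strain, sex and age, and how many clones the knockout line holds, were not stated in the sources used here. Each group is 1 library of pooled tumours with no map from cells to tumours. There is thus no replicate, no spread between tumours and no test between the groups, and each difference below is one between a pair of libraries.

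NK cells are innate lymphocytes that kill cells with low MHC class I or with stress ligands, through granules that hold perforin and granzymes. They read their targets through activating and inhibitory receptors, of which the mouse Ly49 family, encoded by the Klra genes, binds MHC class I. Eomes and Itga2 mark circulating-type NK cells of the mouse, whereas Itga1, Cxcr6 and Zfp683 mark the related group 1 innate lymphoid cells (ILC1) and tissue-resident cells.

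The name was checked against its markers. Itga2, the integrin CD49b, was at 448 CPM (432 to 466) in the knockout gate against 323 CPM (299 to 348) in the control gate, with the 95% Poisson interval in brackets. CPM is the sum of a gene's UMIs over the gate, scaled to a common total for each library. All other kept cells held 29.05 and 2.36 CPM. Eomes, a T-box transcription factor of NK cells, had 254 CPM (241 to 267) in the knockout gate against 172 CPM (155 to 191) in the control gate, against 31.2 and 12.2 CPM in the other cells. Ncr1 (NKp46) and Klrb1c (NK1.1), which the gate used, were at 671 and 592 CPM and at 735 and 706 CPM. ILC1 markers other than Itga1 summed to 334 and 192 CPM over 7 genes, below the 1302 and 513 CPM of the other cells. The other cells hold some of these genes themselves, such as Il7r at 177 and 86.6 CPM, so these sums do not measure ILC1 content. Zfp683 and Gpr55 were at 0 in the control gate but not in the knockout gate. Itga2 and Eomes, which the gate did not use, thus go with the label in both libraries.

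Markers of other cell types were checked as sums over their sets, given as CPM in the knockout and the control gate. T cell genes outside the gate summed to 548 and 613 CPM, against 2303 and 1447 CPM in the other cells. Most of this was Trbc1, a T cell receptor beta constant gene, at 332 and 362 CPM, with a UMI in 86.1% and 87.6% of the gated barcodes. A gate of at most 1 UMI over Cd3e, Cd3d, Cd3g, Trac, Trbc1 and Trbc2 left 71 and 44 barcodes. In that smaller gate 43 of the 179 genes whose ratio was followed through the alternatives had the other order. These were 22 of the 125 genes past 1.5-fold, among them Cd27, Egr1, Ifit1, Ifit3, Nr4a1, Runx1 and Tnf, and 21 genes within 1.5-fold, among them Eomes (log2 ratio -0.17), Itga2 (-0.067), Klra4 (-0.59) and Klra9 (-0.33), which had a higher level in the knockout gate under the full rule. Cd3g, a subunit of the T cell receptor complex, was at 21.7 and 21.8 CPM and Trac at 9.76 and 14.2 CPM. The 9 macrophage genes outside the gate summed to 76.1 and 344 CPM (other cells 1592 and 3749), with 2 and 8 of them at 10 CPM or more. The 9 melanoma genes summed to 28.8 and 1735 CPM (other cells 471 and 3065). B cell genes summed to 171 and 85.6 CPM, with Cd79a and Ms4a1 at 0 in the control gate, and plasmacytoid dendritic cell genes, which include Irf8 and Bst2, to 544 and 999.5 CPM. The conventional dendritic cell set, which includes Itgax, gave 1123 and 1439 CPM, erythroid genes 4.14 and 8.99 CPM and ILC3 genes 1.16 and 0.473 CPM. Sums above those of the other cells in at least 1 library were found for 5 sets. Neutrophil genes were at 39.2 and 287 CPM (other cells 262 and 212), gamma-delta T cell genes, among them Trdc, at 119.6 and 84.2 CPM (52.2 and 10.00) and mast cell genes, almost all from Kit and Cma1, at 81.4 and 112 CPM (58.8 and 8.67). The ILC2 set, which includes Gata3 and Rora, was at 221 and 165 CPM (222 and 116) and endothelial and fibroblast genes at 138 and 118 CPM (108 and 114). The basophil and mast cell genes Fcer1a, Ms4a2, Mcpt8 and Gata2 were at 0 in both gates.

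A single barcode of the control gate stood apart. It held 144588 UMIs, 6.84% of all UMIs of the control gate, and 2839 UMIs of Dct, Tyrp1, Pmel, Mlana and Tyr, the pigment genes of melanoma. The next control barcode held 8 such UMIs. In the knockout gate the largest barcode held 64070 UMIs and the most melanoma UMIs in a barcode were 9. Without that control barcode the melanoma genes summed to 267 CPM and the macrophage genes to 284 CPM in the control gate, both still above the knockout gate. The rule keeps this barcode, so it stays in the values below, and list results, and single genes that it moves by over 0.25 on the log2 scale, are also given without it. A further measure of RNA from other cells was the share of the gate's UMIs that the whole library's profile would need to supply to give the macrophage and melanoma markers. The 21 markers include C1qa, C1qb and C1qc, whose sum the gate limits. The share, and each value after its subtraction, thus rests in part on the rule itself. That share was 4.90% in the knockout gate and 21.6% in the control gate, or 6.89% without the barcode. The control share thus rested largely on that barcode. Values after subtraction of free RNA use 21.6% unless the barcode is said to be left out.

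**Figure D1:**
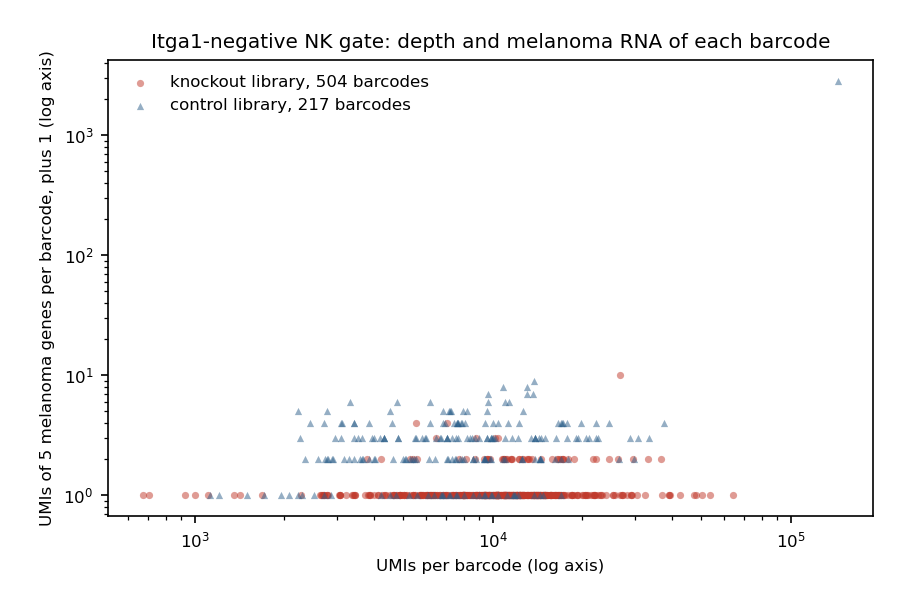
UMIs per barcode (x, log axis) against UMIs of 5 melanoma genes plus 1 (y, log axis) for each barcode of the gate, with knockout barcodes as circles and control barcodes as triangles. A single control barcode, with 144588 UMIs and 2839 melanoma UMIs, lies far from all others, and all other control barcodes hold at most 8.

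The libraries differed in depth and makeup. Kept barcodes had a median of 11148 UMIs in the knockout library, against 14012 for the control, whereas gated barcodes had 10807.5 and 7655 UMIs and 3523.5 and 2850.0 genes. The gates summed to 6042775 and 2113986 UMIs, and the median mitochondrial share was 1.74% and 2.42%. The libraries shared 19 kept barcode sequences (0.218% and 0.202%). The gate held 5.80% (exact 95% interval 5.31 to 6.31) of kept knockout barcodes and 2.30% (2.01 to 2.63) of kept control barcodes, a ratio of 2.51 (2.15 to 2.94). All intervals cover counting error only. As shares of one total, such values also move with every other cell type: among barcodes with a C1q sum under 20 the shares were 6.18% and 3.35%, a ratio of 1.84. Just inside the gate, 18 knockout and 10 control barcodes had a sum of Ncr1 and Klrb1c of 2, and just outside it 104 and 50 had a sum of 1. A sum of Cd3e and Cd3d of 1 was held by 99 and 31 barcodes inside, and of 2 by 25 and 10 outside. For the C1q sum, 0 and 2 barcodes lay at 10 to 19 inside, and 1 and 0 at 20 to 29 outside. Itga1 was at 1 in 63 and 24 barcodes that failed this condition alone.

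Across genes, the control gate held more granzyme, chemokine, glycolysis and interferon-stimulated RNA, and the knockout gate more RNA of several receptors and transcription factors. After subtraction of free RNA 29 of the 125 followed genes past 1.5-fold were within it or in the other direction. With the large control barcode also left out these were 23. The median of the interferon-stimulated list was -0.08 after that subtraction, and -0.45 with the barcode also left out. Each difference is the log2 of CPM plus 5 in the knockout gate minus the same in the control gate, called a log2 ratio below, so that genes lower in the knockout gate have negative values. Of 8650 genes whose mean over both gates reached 10 CPM, 857 (9.91%) were at least 1.5-fold higher in the knockout gate and 697 (8.06%) at least 1.5-fold lower, with a median of 0.10. Without the large control barcode the counts were 717 and 484 of 8566 genes, with a median of 0.09. A gene that passes the minimum through a single library has to differ, so list counts are read beside these shares only. The ratio moved with gene span: the median was -0.23 over the quartile of genes with the shortest span and 0.37 over the quartile with the longest, and its part in the counts was not tested beyond centring. Higher genes made up 55.1% of the genes past 1.5-fold, 36.9% after centring within deciles of span and 34.5% after scaling by the median ratio. They made up 39.3% with ribosomal and mitochondrial genes left out of the total. After subtraction of free RNA they made up 65.7%, or 62.4% with the barcode also left out. The sign of a list median was the other one in some of the 18 alternatives for 12 of the 27 lists: 9 for NK identity, 8 for late NK maturation, 2 for Ly49 receptors, 1 for cytokine receptors and signal transducers, 2 for residency and ILC1 genes, 1 for NK transcription factors, 2 for interferon-gamma-induced genes, 1 for MHC class I, 4 for S phase genes, 2 for mitosis genes, 10 for apoptosis genes and 2 for the TNF receptor superfamily. For the other lists it was the same in all of them.

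**Figure D2:**
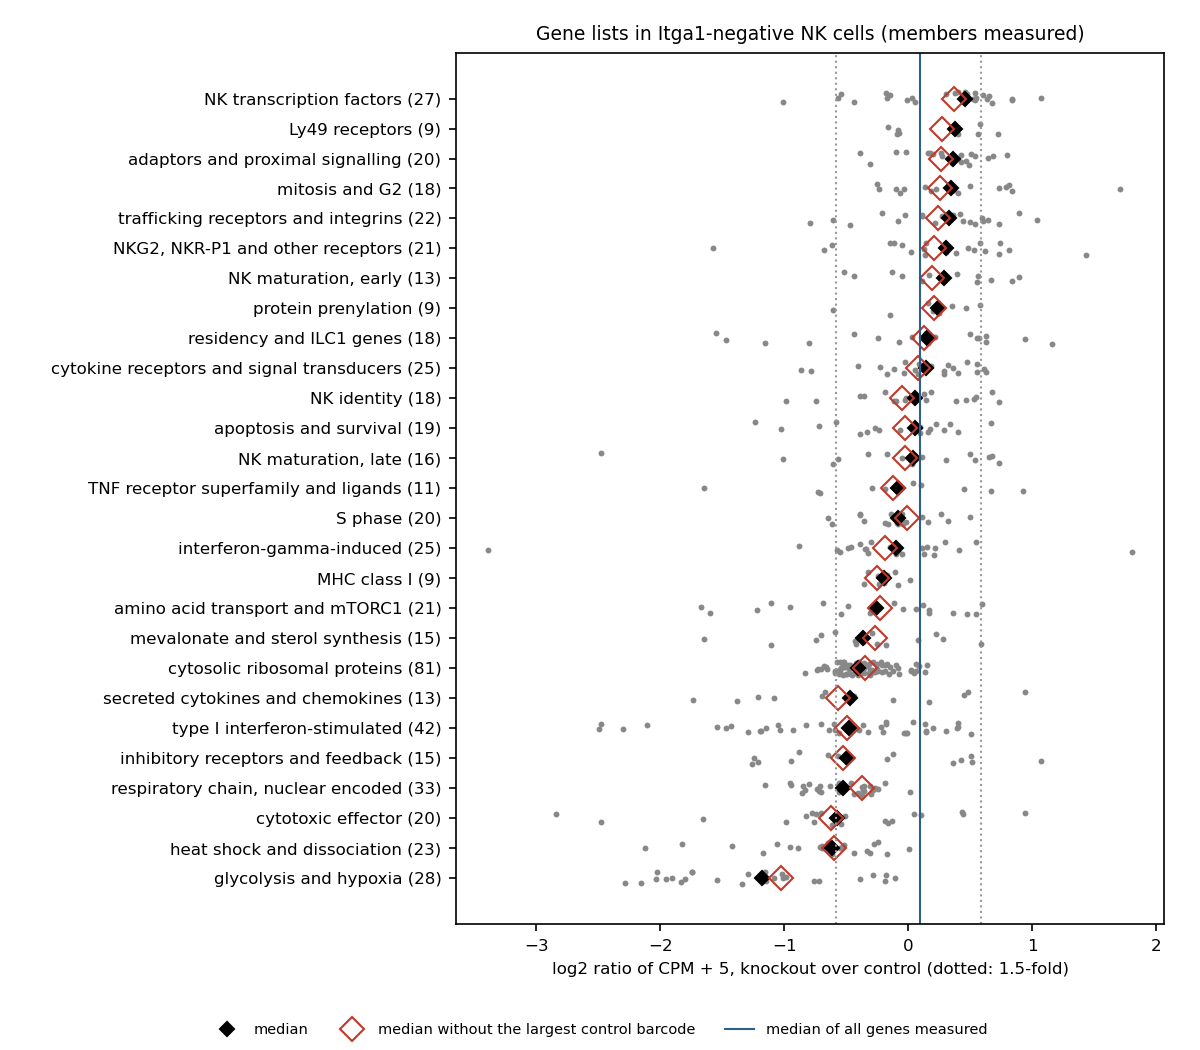
Log2 ratio of CPM plus 5, knockout over control (x), of each measured member (grey points) of 27 gene lists (y, with the number of members measured). Filled diamonds are list medians, open diamonds the same without the largest control barcode, the solid line is the median of all genes measured and dotted lines are 1.5-fold. The glycolysis and hypoxia list has the lowest median, -1.18, and the NK transcription factors the highest, 0.46. Some list medians change sign under some settings, and not only those near the solid line. That of the NK transcription factors was -0.14 with 6 T cell genes in the gate.

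Many granule genes were lower in the knockout library. Gzmb, which encodes granzyme B, a protease that starts apoptosis in target cells, had 271 CPM (258 to 284) in the knockout gate against 1533 CPM (1481 to 1587) in the control gate, a log2 ratio of -2.48 (-2.58 without the large control barcode). Gzmc, the gene of granzyme C, was at 66.7 CPM (60.3 to 73.5) in the knockout gate against 509 CPM (479 to 540.3) in the control gate, a log2 ratio of -2.84. Its UMIs were uneven over cells, with 40.9% and 38.01% of them in 1 barcode of each gate, and its close paralogs (Gzmd to Gzmg) make its count uncertain. Prf1 encodes perforin, the pore through which granzymes enter a target. It was at 409 CPM (393 to 426) in the knockout gate against 816 CPM (777 to 855) in the control gate, a log2 ratio of -0.99. Gzma, granzyme A, was at 2806 CPM (2764 to 2849) in the knockout gate against 4701 CPM (4609 to 4794) in the control gate, a log2 ratio of -0.74. For these genes the intervals of the libraries did not overlap, and the knockout gate was the lower one each time. Of 26 genes in the cytotoxic effector list, 20 were measured, and 1 of them was at least 1.5-fold higher in the knockout library and 10 lower, with a median of -0.58 beside 0.10 over all genes (1 higher and 11 lower, median -0.62 without the barcode). The granule inhibitor Serpinb9 was at 244 and 421 CPM (log2 ratio -0.77) and the related Serpinb9b at 29.3 and 103 CPM (-1.66). Lamp2, a lysosomal membrane protein, was at 52.96 and 97.4 CPM (-0.82, or -0.25 after subtraction of free RNA) and Srgn, the proteoglycan serglycin that packs granule proteases, at 436 and 743 CPM (-0.76). The ratio of Lamp2 was past 1.5-fold on the lower side in 15 of the 18 alternatives. In the other direction, Tnfsf10, the death receptor ligand TRAIL, was at 40.9 and 18.9 CPM (0.94). Ctsw and Ctsc, lysosomal cysteine proteases, differed least, with log2 ratios of 0.10 and 0.05. However, the other control cells held 688 CPM of Ctsc against 114 CPM in the gate. The ratio of Ctsc was 4.52 after subtraction of free RNA. With the barcode also left out, no measured member of the list was above 0.85. The other control cells held 493 CPM of Gzmb and 127 CPM of Gzmc. The ratios of Gzmb and Gzmc were past 1.5-fold on the lower side in all 18 alternatives, both subtractions of free RNA among them. Their highest values were -2.16 and -2.25. The part of free RNA in the control level was not tested beyond these alternatives. After subtraction of free RNA the list median was -0.53, and -0.64 with the barcode also left out.

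Secreted factors followed with lower levels of several chemokines in the knockout library. Ccl4, which draws T cells and monocytes, had 156 CPM (146 to 167) in the knockout gate against 415 CPM (388 to 444) in the control gate, a log2 ratio of -1.38. Ccl3, a related chemokine, was at 45.5 and 102 CPM (-1.08, but -0.18 after subtraction of free RNA). The ratio of Ccl3 was past 1.5-fold on the lower side in 16 of the 18 alternatives. The other control cells held 659 CPM of Ccl4 and 327 CPM of Ccl3, and 7 of the 13 measured members of this list were lower in the control gate than in those cells. Ccl5, a chemokine of cytotoxic lymphocytes, was at 3361 CPM (3315 to 3408) in the knockout gate against 4652 CPM (4561 to 4745) in the control gate, a log2 ratio of -0.47. Ifng, interferon-gamma, the main cytokine of NK cells, had 28.5 CPM (24.4 to 33.05) in the knockout gate against 48.3 CPM (39.3 to 58.6) in the control gate, a log2 ratio of -0.67 (-0.47 after subtraction of free RNA). Tnf was at 18.4 and 49.2 CPM (-1.21), with 62.5% of its control UMIs in 1 barcode, and its ratio was 0.19 with marked doublets removed. Xcl1, which draws type 1 conventional dendritic cells, was at 418 and 567 CPM (-0.43), within 1.5-fold. Spp1, osteopontin, was at 29.1 and 109 CPM (-1.74), and the other control cells held 265 CPM of it. Of 18 listed genes 13 were measured, with 1 higher (Tnfsf10) and 6 lower in the knockout library and a median of -0.47 (1 higher and 6 lower, median -0.57 without the barcode). Tgfb1 and Ltb differed least, at -0.12 and 0.17.

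Ly49 receptors were present in both libraries. Klra8, for the activating Ly49H, was the 1 past 1.5-fold, with the higher level in the knockout library. As a share of the 9 measured members this was 11.1%, near the 9.91% of all genes that were higher. Klra8 encodes Ly49H, which pairs with the adaptor DAP12, and was at 971 CPM (946 to 996) in the knockout gate against 585 CPM (553 to 618) in the control gate, a log2 ratio of 0.73. Klra4, the gene of the activating Ly49D, was at 1063 CPM (1037 to 1089) in the knockout gate against 817 CPM (779 to 856) in the control gate, a log2 ratio of 0.38. Among inhibitory members, Klra7 (Ly49G) was at 411 CPM (395 to 428) in the knockout gate against 437 CPM (409 to 466) in the control gate and Klra3 (Ly49C) at 163 and 174 CPM, and their intervals overlapped between libraries, with log2 ratios of -0.09 and -0.09. With at most 1 UMI over the 6 T cell genes the ratio of Klra4 was -0.59, the other direction. After subtraction of free RNA that of Klra8 was 0.46, within 1.5-fold. With the barcode also left out, 1 Ly49 gene was past 1.5-fold after that subtraction, at 0.59. Klra9 (Ly49I) was at 249 and 187 CPM (0.40), Klra1 (Ly49A) at 79.6 and 89.9 CPM (-0.17) and Klra10 at 34.3 and 21.3 CPM (0.58). Of 13 listed genes, 11 were in the files and 9 were measured, 1 of them (Klra8) was at least 1.5-fold higher and 0 lower, and the median was 0.38 (1 higher and 0 lower, median 0.28 without the barcode, and of the other sign in 2 of the 18 alternatives). Klra genes are near-identical copies, so reads can be lost or shared between them and each count is uncertain.

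Among the other receptors, Cd226 (DNAM-1), an activating receptor for nectin-like ligands, was at 309.6 CPM (296 to 324) in the knockout gate against 111 CPM (97.4 to 126) in the control gate, a log2 ratio of 1.44. The other cells of the knockout library also held more of it, 380.0 against 100.4 CPM. Klrc2 (NKG2C) was at 334 and 199 CPM (0.74) and Klrc3 (NKG2E) at 61.9 and 33.1 CPM (0.81). Klri1, of the same lectin family, was at 45.2 and 25.1 CPM (0.74) and Klrb1f, of the NKR-P1 group, at 259.8 and 167 CPM (0.62). Klrk1, which encodes NKG2D, a receptor for stress ligands, was at 959 CPM (934 to 984) in the knockout gate against 867 CPM (827 to 907) in the control gate, a log2 ratio of 0.15. Lilrb4a, an inhibitory immunoglobulin-like receptor, was at 39.9 and 129 CPM (-1.57), and the other control cells held 254 CPM. Slamf7, a receptor of the SLAM family, was at 98.3 and 160.4 CPM (-0.68). Klrb1a and Klrg1 differed least, at 0.02 and -0.05. Of 21 measured members of 24 listed, 5 were higher and 3 lower, median 0.30 (4 higher and 3 lower, median 0.21 without the barcode).

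Adaptors and early kinases that carry receptor signals leaned the same way, but few passed 1.5-fold. The guanine exchange factor Vav3 was at 269 and 153 CPM (0.80), the kinase Syk at 254 and 156 CPM (0.69) and the phospholipase Plcg2 at 213 and 135 CPM (0.64). Fyn, a Src-family kinase, was at 777 and 533 CPM (0.54). Tyrobp (DAP12) and Fcer1g, the adaptors of many activating receptors, were at 1503 and 1524 CPM and at 1130.4 and 1209 CPM, with log2 ratios of -0.02 and -0.10. Of 20 measured members of 21 listed, 3 were higher and 0 lower, with a median of 0.36 (2 higher and 0 lower, median 0.27 without the barcode). The median was 0.25 after scaling by the median ratio and 0.19 after centring on span.

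Genes of NK identity were at similar levels in the libraries, while single factors of early and late NK cells differed. Tcf7, a transcription factor of immature and self-renewing lymphocytes, was at 231 CPM (219 to 243) in the knockout gate against 127 CPM (112 to 143) in the control gate, a log2 ratio of 0.83 (0.57 after subtraction of free RNA). Tox, needed early in NK development, was at 745 CPM (723 to 767) in the knockout gate against 351 CPM (326 to 377) in the control gate, a log2 ratio of 1.08, and Klf12 at 399 and 221 CPM (0.83). Tbx21 (T-bet), the T-box factor of terminal maturation, was at 321 CPM (307 to 336) in the knockout gate against 199.6 CPM (181 to 219.6) in the control gate, a log2 ratio of 0.67. Irf8, an interferon regulatory factor, was the one in the other direction, at 305 CPM (292 to 319.8) in the knockout gate against 619.7 CPM (587 to 654) in the control gate, a log2 ratio of -1.01. Ikzf3 (Aiolos) was at 531 and 335 CPM (0.66) and Runx1 at 942 and 604 CPM (0.64). Id2, which all innate lymphoid cells need, and Zeb2, a factor of late maturation, differed least, at -0.01 and 0.03 (0.72 for Zeb2 after subtraction of free RNA). With the barcode also left out, no gene of the late NK maturation list, which holds Zeb2, was above 0.59 after that subtraction. Of 27 measured transcription factors of 31 listed, 7 were higher and 1 lower, with a median of 0.46 (4 higher and 2 lower, median 0.37 without the barcode). Many of these factors have long genes: centring on span gave a median of 0.12. The levels of Tox and Tcf7 were also higher in the other cells of the knockout library, at 1323 against 355 CPM and 89.7 against 7.15 CPM.

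Cd27, a TNF receptor carried by less mature NK cells, was at 106 and 64.8 CPM (0.67), and Cxcr3, a chemokine receptor of the same stage, at 60.4 and 30.3 CPM (0.89). Kit was at 55.1 and 80.9 CPM (-0.51). Of 13 measured early genes of 14 listed, 3 were higher and 0 lower, median 0.29 (2 higher and 1 lower, median 0.19 without the barcode). Of 16 late genes, all measured, 3 were higher and 3 lower, median 0.04 (1 higher and 4 lower, median -0.03 without the barcode). The late list holds Gzmb and Irf8, described above, among its lower members. Klrg1, an inhibitory receptor of terminally mature cells, had 35.1 CPM (30.5 to 40.1) in the knockout gate against 36.4 CPM (28.7 to 45.5) in the control gate, with overlapping intervals. S1pr1, which guides exit from tissue, was at 27.6 and 14.7 CPM (0.73), and Spn (CD43) at 192 and 120.2 CPM (0.65). Of 18 measured identity genes of 20 listed (the gate genes Ncr1 and Klrb1c stay out), 2 were higher (Tbx21, Klrc2) and 2 lower (Gzma, Prf1), with a median of 0.05 (1 higher and 2 lower, median -0.046 without the barcode). Tbx21 was then at a log2 ratio of 0.58, within 1.5-fold. The median of the identity list took the other sign in 9 of the 18 alternatives and that of the late list in 8 of the 18.

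Integrins and homing receptors leaned towards higher levels in the knockout library. Itgax (CD11c) was at 147 CPM (137 to 157) in the knockout gate against 68.6 CPM (57.9 to 80.7) in the control gate, a log2 ratio of 1.04. Itgal, the alpha chain of LFA-1, by which NK cells bind their targets, was at 525 and 334 CPM (0.64) and Itgb7 at 148 and 95.6 CPM (0.61). Cd44, a hyaluronan receptor, was at 255 and 167 CPM (0.59). Ccrl2, a chemokine-binding receptor, was at 17.9 and 34.5 CPM (-0.79) and Cx3cr1 at 7.94 and 14.7 CPM (-0.60, but 0.98 in cells thinned before gating). Cmklr1 and S1pr4 differed least, at -0.03 and -0.08. Of 22 measured members of 24 listed, 6 were higher and 2 lower, median 0.33 (4 higher and 2 lower, median 0.24 without the barcode).

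Residency genes differed in both directions. Inpp4b, a phosphoinositide phosphatase that marks ILC1, was at 179 CPM (169 to 190.1) in the knockout gate against 77.1 CPM (65.7 to 89.9) in the control gate, a log2 ratio of 1.16, and the other cells held 782 and 172 CPM. Cd69, an early activation and retention molecule, was at 31.3 CPM (26.98 to 36.1) in the knockout gate against 95.6 CPM (82.8 to 109.7) in the control gate, a log2 ratio of -1.47. Rgs1, a regulator that dampens chemokine receptor signals, was at 66.9 and 155 CPM (-1.15). Ckb was at 10.8 and 41.2 CPM (-1.55), with 198 CPM in the other control cells and a ratio of 1.32 after subtraction of free RNA. Its ratio was past 1.5-fold on the lower side in 17 of the 18 alternatives, among them that subtraction with the barcode left out. Ski, a brake on TGF-beta signals, was at 84.1 and 52.5 CPM (0.63), and Smad7 and Tmem176b differed least, at 0.03 and -0.07 (0.26 for Tmem176b without the barcode). Of 18 measured members of 24 listed, 4 were higher and 4 lower, median 0.15 (4 higher and 4 lower, median 0.13 without the barcode). Cytokine receptors and signal transducers stayed close to the median of all genes, with 2 of 25 measured (27 listed) higher and 2 lower, median 0.14 (0 higher and 2 lower, median 0.08 without the barcode). Il18r1, of the IL-18 receptor, was at 557 and 358 CPM (0.63), and Stat4, which transmits IL-12, at 962 and 627 CPM (0.61). Stat3 was at 271 and 469 CPM (-0.78) and Il2ra at 20.02 and 40.7 CPM (-0.87). Il2rb, shared by the receptors of IL-2 and IL-15 and needed for NK survival, was at 799 CPM (777 to 822) in the knockout gate against 813 CPM (775 to 852) in the control gate, a log2 ratio of -0.02.

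Feedback genes that follow activation were lower in the knockout library or within 1.5-fold, except Tox, given above. Tnfaip3 (A20), which restrains NF-kappaB, was at 63.1 CPM (56.9 to 69.7) in the knockout gate against 158 CPM (141 to 175) in the control gate, a log2 ratio of -1.26. Socs3 and Socs1, feedback inhibitors of cytokine signals, were at 8.61 and 26.5 CPM (-1.21) and at 31.9 and 62.9 CPM (-0.88). Ctla4 was at 10.3 and 31.2 CPM (-1.25), with 95.1 CPM in the other control cells. Nr4a1, an immediate early nuclear receptor, was at 19.7 and 42.6 CPM (-0.95). Havcr2 and Entpd1 differed least, at -0.13 and -0.17, but at 1.02 and 0.59 after subtraction of free RNA. With the barcode also left out, only 1 of 14 measured members, Tox at 0.91, was at least 1.5-fold higher after that subtraction. Of 20 listed genes 15 were measured, with 1 higher and 6 lower, median -0.49 (1 higher and 6 lower, median -0.53 without the barcode). In the TNF receptor list, Tnfrsf9 (4-1BB), induced on activated NK cells, had 103 CPM (94.7 to 111) in the knockout gate against 333 CPM (308 to 358) in the control gate, a log2 ratio of -1.65. Tnfrsf18 (GITR) was at 80.1 and 136 CPM (-0.73) and Tnfsf8, the CD30 ligand, at 25.2 and 10.9 CPM (0.93). That list had 2 higher and 3 lower of 11 measured (18 listed), median -0.08 (1 higher and 2 lower, median -0.13 without the barcode).

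Of 19 measured apoptosis genes of 21 listed, 1 was higher and 3 lower, median 0.05 (1 higher and 4 lower, median -0.02 without the barcode), and the sign of the median differed in 10 of the 18 alternatives. Bcl2a1b, a survival gene of the same family as Bcl2, was at 41.4 and 89.4 CPM (-1.03, but -0.059 after subtraction of free RNA) and the survival factor Bcl2 at 891 and 1125 CPM (-0.33). The ratio of Bcl2a1b was past 1.5-fold on the lower side in 16 of the 18 alternatives, among them that subtraction with the barcode left out. Heat shock and immediate early genes, which also respond to enzymatic digestion, had 0 of 23 measured (24 listed) higher and 13 lower, median -0.62 (0 higher and 12 lower, median -0.60 without the barcode). Egr1, an immediate early factor, was at 6.45 CPM (4.59 to 8.82) in the knockout gate against 35.5 CPM (27.9 to 44.5) in the control gate, a log2 ratio of -1.82. Jun, a subunit of AP-1, was at 47.8 and 136 CPM (-1.42) and Dusp1 at 31.3 and 76.6 CPM (-1.17). Hsp90aa1, a stress-induced chaperone, was at 309 and 602 CPM (-0.95, or -0.65 without the barcode). The other cells held 608 and 870.1 CPM of Hsp90aa1. Hspa8, a constitutive chaperone, was at 727 and 902 CPM (-0.31).

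Glycolysis and hypoxia genes were lower in the knockout library almost throughout. Hypoxia-inducible factors bind a core of ACGTG in the control regions of these genes. The 250 bases before the start of 3 members from the lower end of the list, with this core, are shown because this core was more frequent in the list's promoters than in promoters at large. They are RefSeq promoters on build GRCm38.p6, 5′ to 3′ on the gene's strand, with ACGTG or its reverse complement CACGT in capitals: Pgk1 at chrX:106186850-106187099 on the plus strand, Bnip3 at chr7:138909507-138909756 on the minus strand and Slc16a3 at chr11:120948817-120949066 on the plus strand.
Pgk1: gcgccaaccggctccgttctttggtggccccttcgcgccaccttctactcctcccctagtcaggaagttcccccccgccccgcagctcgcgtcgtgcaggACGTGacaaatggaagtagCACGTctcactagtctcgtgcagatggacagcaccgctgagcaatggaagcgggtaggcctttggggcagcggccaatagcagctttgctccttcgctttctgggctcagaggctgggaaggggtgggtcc
Bnip3: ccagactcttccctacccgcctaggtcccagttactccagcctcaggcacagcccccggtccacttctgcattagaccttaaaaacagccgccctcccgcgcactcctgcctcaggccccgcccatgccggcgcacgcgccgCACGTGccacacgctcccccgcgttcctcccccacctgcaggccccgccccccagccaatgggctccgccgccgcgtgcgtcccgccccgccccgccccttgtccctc
Slc16a3: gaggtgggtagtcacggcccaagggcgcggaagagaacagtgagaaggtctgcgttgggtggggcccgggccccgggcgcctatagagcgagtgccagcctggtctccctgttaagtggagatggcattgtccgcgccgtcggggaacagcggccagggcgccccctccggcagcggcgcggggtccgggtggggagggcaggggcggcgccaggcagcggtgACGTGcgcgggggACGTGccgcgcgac
The core was in 14 of 24 measured members with a RefSeq promoter (58.3%) and in 13 of the 21 lower ones. Of all 27025 genes with a promoter of the same length, 4998 (18.5%) held the core. A gene was counted when any of its promoters held it. A match is a string of letters and not a shown binding site.

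Pgk1, phosphoglycerate kinase, was at 99.8 CPM (91.98 to 108) in the knockout gate against 505 CPM (475 to 536) in the control gate, a log2 ratio of -2.28 (-1.60 without the large control barcode). Gapdh was at 356 CPM (341 to 371) in the knockout gate against 1477 CPM (1425 to 1529.6) in the control gate, a log2 ratio of -2.04 (-1.46 without it). Slc16a3, the lactate exporter MCT4, was at 6.45 CPM (4.59 to 8.82) in the knockout gate against 39.3 CPM (31.3 to 48.7) in the control gate, a log2 ratio of -1.95 (-2.03 without it). All of these lay below the control gate beyond counting error. Bnip3, a hypoxia-induced mitochondrial protein, was at 9.27 and 58.7 CPM (-2.16, or -1.80 without the barcode), and the glycolytic enzymes Tpi1 at 107 and 449.9 CPM (-2.03, or -1.62) and Aldoa at 191 and 732 CPM (-1.91, or -1.56). Ldha, which makes lactate, was at 213 and 528 CPM (-1.29, or -1.03) and Mif, a hypoxia-induced cytokine, at 204 and 696 CPM (-1.75, or -1.37). Egln1, an oxygen sensor, and Hk1, the constitutive hexokinase, differed least, at -0.18 and -0.11. Of 30 listed genes 28 were measured, 0 were higher and 23 were lower, with a median of -1.18 (0 higher and 22 lower, median -1.03 without the barcode). In 27 of the 28 members the control gate held less than the other control cells, which themselves held more than the other knockout cells for genes such as Gapdh (3166 against 795 CPM). After subtraction of free RNA the list median was -0.94, and -0.96 when the barcode was also left out.

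Other metabolic lists were lower to a smaller degree. Nuclear-encoded respiratory chain genes had 0 of 33 (all listed ones) higher and 12 lower, median -0.52, and without the large control barcode 0 higher and 4 lower, median -0.37. The barcode thus carried most of the calls in that list. Atp5b, the catalytic beta subunit of ATP synthase, was at 188 and 425 CPM (-1.16, or -0.94 without it), Sdhb of complex II at 65.9 and 132 CPM (-0.95, or -0.62) and Cox4i1 of complex IV at 484 and 801 CPM (-0.72). For amino acid transport and mTORC1 genes, 1 of 21 measured (23 listed) was higher and 6 lower, median -0.26 (0 higher and 6 lower, median -0.23 without the barcode). Slc7a5 and Slc3a2, the subunits of the leucine transporter, were at 7.28 and 32.2 CPM (-1.60) and at 51.5 and 126 CPM (-1.22). Odc1, of polyamine synthesis, was at 45.3 and 103 CPM (-1.10) and Myc at 17.9 and 39.3 CPM (-0.95). Sesn3, a sestrin, was at 161 and 105 CPM (0.60), and Rheb and Slc38a1 differed least, at -0.04 and 0.06. Cytosolic ribosomal protein genes, which are short, had 0 of 81 measured (84 listed) higher and 9 lower, median -0.40 (0 higher and 7 lower, median -0.35 without the barcode). Centring on gene span brought that median to -0.09.

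Type I interferon-stimulated genes were lower in the knockout library or within 1.5-fold. Signals from the interferon receptor end at an element with repeats of GAAA. The 250 bases before the start of 3 genes from the lower end of the list are shown because the list's promoters held such repeats more often than promoters at large, with a pair of GAAA set apart by any 2 bases, or on the other strand a pair of TTTC so spaced (overlapping matches merged), in capitals: Isg15 at chr4:156200819-156201068 on the minus strand, Rsad2 at chr12:26456453-26456702 on the minus strand and Ifit3 at chr19:34583279-34583528 on the plus strand, from RefSeq on GRCm38.p6.
Isg15: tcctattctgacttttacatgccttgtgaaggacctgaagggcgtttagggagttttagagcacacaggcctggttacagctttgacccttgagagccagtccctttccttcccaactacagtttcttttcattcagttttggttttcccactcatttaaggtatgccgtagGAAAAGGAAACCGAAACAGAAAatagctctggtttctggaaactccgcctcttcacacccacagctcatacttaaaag
Rsad2: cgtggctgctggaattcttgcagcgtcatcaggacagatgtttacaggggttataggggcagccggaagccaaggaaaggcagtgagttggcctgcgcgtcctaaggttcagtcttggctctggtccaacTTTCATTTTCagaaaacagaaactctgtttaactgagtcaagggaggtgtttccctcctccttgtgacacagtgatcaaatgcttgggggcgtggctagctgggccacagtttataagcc
Ifit3: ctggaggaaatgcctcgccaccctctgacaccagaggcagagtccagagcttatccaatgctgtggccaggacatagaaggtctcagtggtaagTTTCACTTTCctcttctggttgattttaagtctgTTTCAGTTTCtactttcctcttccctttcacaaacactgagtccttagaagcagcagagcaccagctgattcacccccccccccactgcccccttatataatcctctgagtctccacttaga
The motif was in 17 of 34 measured members with a RefSeq promoter (50%) and in 7 of the 14 lower ones. Of all 27025 genes with a promoter, 936 (3.46%) held the motif in any of them. Within the list it was thus as frequent among lower members as among all of them.

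Isg15, an ubiquitin-like modifier, was at 28.1 CPM (24.1 to 32.7) in the knockout gate against 182 CPM (164 to 201) in the control gate, a log2 ratio of -2.49 (-2.28 without the large control barcode). Rsad2 (viperin) was at 10.3 CPM (7.87 to 13.2) in the knockout gate against 79.9 CPM (68.3 to 92.9) in the control gate, a log2 ratio of -2.48, but -0.18 after subtraction of free RNA. The ratio of Rsad2 was past 1.5-fold on the lower side in 17 of the 18 alternatives, among them that subtraction with the barcode left out. Ifit3 was at 8.77 and 62.9 CPM (-2.30) and Ifit1, which binds foreign RNA, at 7.28 and 47.8 CPM (-2.10). Their control levels lay well above the knockout levels. Bst2 (tetherin) was at 66.7 and 193 CPM (-1.47) and Isg20, an exonuclease that degrades RNA, at 5.30 and 25.1 CPM (-1.55). Ddx58 (RIG-I) and Parp14 differed least, at -0.01 and -0.02. Of 48 listed genes 42 were measured, 0 were at least 1.5-fold higher and 19 lower, median -0.48 (0 higher and 19 lower, median -0.49 of 43 without the barcode). In 35 of the 42 members the control gate held less than the other control cells, for Isg15 182 against 617 CPM. After subtraction of free RNA in the share of 21.6% the list median was -0.08, and in the share of 6.89%, without the barcode, -0.45. How much of the control level came from the NK cells themselves was not tested beyond these values.

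Interferon-gamma-induced genes had 1 of 25 (all listed ones) higher and 2 lower, median -0.10 (1 higher and 5 lower, median -0.18 without the barcode). The extremes were a pair of Cxcr3 ligands that lay in opposite directions. Cxcl10 was at 10.4 CPM (8.01 to 13.3) in the knockout gate against 157 CPM (140.2 to 174) in the control gate, a log2 ratio of -3.39, and Cxcl9 at 60.4 CPM (54.4 to 66.9) in the knockout gate against 13.7 CPM (9.19 to 19.7) in the control gate, a log2 ratio of 1.80. Each was seen in few cells, Cxcl10 in 5.36% and 23.5% and Cxcl9 in 5.16% and 9.68% of them, and 30.1% of the knockout UMIs of Cxcl9 were in 1 barcode. In cells thinned before gating the log2 ratio of Cxcl9 was -0.61. The other cells held 181 and 388 CPM of Cxcl9, the opposite order. Gbp2, a guanylate-binding protein, and Tap1, a peptide transporter for MHC class I, differed least, at -0.09 and -0.05, but Gbp2 was at 2.14 after subtraction of free RNA. Of the MHC class I genes, the ligands of Ly49 receptors, 0 of 9 were higher and 0 lower, median -0.19 (-0.25 without the barcode). H2-K1 was at 1926 CPM (1892 to 1962) in the knockout gate against 2037 CPM (1977 to 2099) in the control gate and B2m, the light chain, at 2328 and 2503 CPM, with log2 ratios of -0.08 and -0.10.

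Genes of the pathway that FDPS belongs to were sparse in these cells. Fdps itself was at 11.1 CPM (8.59 to 14.1) in the knockout gate against 45.4 CPM (36.8 to 55.5) in the control gate, a log2 ratio of -1.65 (-1.22 without the large control barcode), and the other cells held 39.3 and 116 CPM. As the gate holds host cells, this is no check of the tumour genotype. Of 24 mevalonate and sterol genes 15 were measured, with 1 higher and 5 lower, median -0.36 (1 higher and 4 lower, median -0.26 without the barcode). After subtraction of free RNA the median was 0.00, and -0.22 with the barcode also left out. Hmgcs1, which makes HMG-CoA, was at 22.3 and 40.7 CPM (-0.74). Msmo1, of sterol synthesis, was at 10.9 and 29.3 CPM (-1.11, or -0.67 without the barcode) and Ggps1, the enzyme after Fdps on the way to geranylgeranyl groups, at 58.4 and 47.3 CPM (0.28). Enzymes that attach prenyl groups to proteins had 0 of 9 measured (11 listed) higher and 1 lower, median 0.24 (1 higher and 0 lower, median 0.21 without the barcode). Pggt1b, a subunit of the enzyme that attaches geranylgeranyl groups, was at 46.5 and 39.7 CPM (0.20) and Rabggtb, of the Rab transferase, at 23.5 and 38.3 CPM (-0.60).

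Cell cycle genes rested on few cells. A UMI of Mki67 or Top2a was found in 116 of 504 knockout and 63 of 217 control barcodes. Of 18 measured mitosis genes of 26 listed, 5 were higher and 0 lower, median 0.35 (5 higher and 0 lower, median 0.26 without the barcode), and of 20 measured S phase genes of 24 listed, 0 were higher and 2 lower, median -0.08 (0 higher and 0 lower, median -0.01 without the barcode). Cenpf, a kinetochore gene, was at 37.6 CPM (32.8 to 42.8) in the knockout gate against 8.04 CPM (4.68 to 12.9) in the control gate, a log2 ratio of 1.71. Mki67, a marker of dividing cells, was at 94.00 and 73.8 CPM (0.33), Cdk1 at 16.1 and 16.6 CPM (-0.03) and the replication clamp Pcna at 98.1 and 90.4 CPM (0.11). All 18 mitosis members were lower in the control gate than in the other control cells. Without cells that had a UMI of Mki67 or Top2a, 1 member was still measured. The list median was 1.41 over 12 members after subtraction of free RNA, and 0.28 over 16 members with the barcode also left out. It was -0.27 over 21 members with no gate on Itga1, so no direction is given for these genes.

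The genes with the highest ratios, among those with at least 20 CPM whose level in the gate was at least 0.5 times that in the other cells, were led by Ccl1. This ligand of Ccr8 was at 66.9 CPM (60.5 to 73.7) in the knockout gate against 3.31 CPM (1.33 to 6.82) in the control gate, a log2 ratio of 3.11, but 90.3% of its knockout UMIs came from 1 barcode and only 1.98% and 0.461% of cells had any. Angpt1, angiopoietin 1, a secreted ligand of the endothelial receptor Tie2, was at 220.3 CPM (209 to 232) in the knockout gate against 46.8 CPM (38.1 to 57.02) in the control gate, a log2 ratio of 2.12. It lies at chr15:42424723-42676977 (GRCm38), was seen in 50.2% and 22.1% of barcodes, and was at 8.72 and 1.16 CPM in the other cells. Btbd11 was at 249 CPM (236 to 261) in the knockout gate against 70.96 CPM (60.1 to 83.3) in the control gate, a log2 ratio of 1.74. Ifngas1, an RNA antisense to the Ifng locus, was at 41.9 and 10.9 CPM (1.56), while Ifng had the opposite order, and the sources used here do not say whether reads were assigned by strand. Taco1, which is needed to translate a mitochondrial cytochrome oxidase subunit, was at 161 and 39.3 CPM (1.91), with 155 and 30.1 CPM in the other cells. Further genes were Cd226, given above, Gprin3 (1.35), Glcci1 (1.33), Fhit (1.30), Rtn4rl1 (1.27) and Ipcef1 (1.26). The other cells of the knockout library held more of these last than the other control cells, for Ipcef1 267 against 47.4 CPM and for Fhit 95.1 against 10.9 CPM. Without the large control barcode Igf1r, the IGF-1 receptor, took the place of Ipcef1, at 48.3 and 17.3 CPM (1.26).

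The lowest ratios with all barcodes were mostly those of melanoma genes in the single control barcode. Dct, a melanin enzyme, was at 6.29 CPM (4.45 to 8.63) in the knockout gate against 780.0 CPM (743 to 819) in the control gate, and at 101 CPM without it. Pmel and Tyrp1, also of the pigment cell, were at 1.99 and 433 CPM and at 1.49 and 192 CPM, and at 41.1 and 29.96 CPM without it. Mgll, Syngr1, Stox2, Chchd10, Sparc and Slc45a2 had control levels of 86.6, 70.01, 59.6, 164, 44.5 and 45.4 CPM with it and 4.57, 6.60, 3.55, 26.4, 2.03 and 7.11 CPM without it. Sparc had 0 UMIs in the knockout gate, which is at least 89.6-fold lower than the control gate when set against the 3 counts that a zero allows. Single barcodes also set a pair of neutrophil genes. S100a8 was at 3.48 and 109.7 CPM and S100a9 at 5.96 and 104 CPM, with 98.7% and 94.1% of their control UMIs in 1 barcode.

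With the same rule applied without the large control barcode, the lowest genes were S100a8, S100a9, Gzmc, Gzmb, Egr1, Serpinb9b and Tnfrsf9, all given above, and Cxcl2, Gadd45g, Sult2b1, Vegfa and P2ry14. Cxcl2, a neutrophil chemokine, was at 5.46 CPM (3.76 to 7.67) in the knockout gate against 110.2 CPM (96.5 to 125) in the control gate, a log2 ratio of -3.46, with 176 CPM in the other control cells. Gadd45g, a stress sensor induced by cytokines in NK and T cells, had 10.4 CPM (8.01 to 13.3) in the knockout gate against 70.5 CPM (59.6 to 82.8) in the control gate, a log2 ratio of -2.29. Sult2b1, a sterol sulfotransferase, was at 10.4 CPM (8.01 to 13.3) in the knockout gate against 53.9 CPM (44.5 to 64.8) in the control gate, a log2 ratio of -1.93, and only at 4.72 CPM in the other control cells. Vegfa, a hypoxia-induced growth factor of vessels, was at 12.1 and 55.8 CPM (-1.83), and P2ry14, a receptor for UDP-sugars, at 27.6 and 92.7 CPM (-1.58). Genes with the largest ratios that were mainly RNA of other cells were Retnla, Cd63, Gpnmb and Mlana. Retnla, which alternatively activated macrophages secrete, was at 88.7 CPM in the knockout gate and had 0 UMIs in the control gate, at least 62.5-fold higher against the 3 counts that a zero allows. The other knockout cells held 2196 CPM of it. Cd63, Gpnmb and Mlana were at 4.14 and 140.0 CPM, at 2.81 and 110.2 CPM and at 1.32 and 81.4 CPM, with control levels of 40.1, 30.97 and 18.8 CPM without the barcode.

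**Figure D3:**
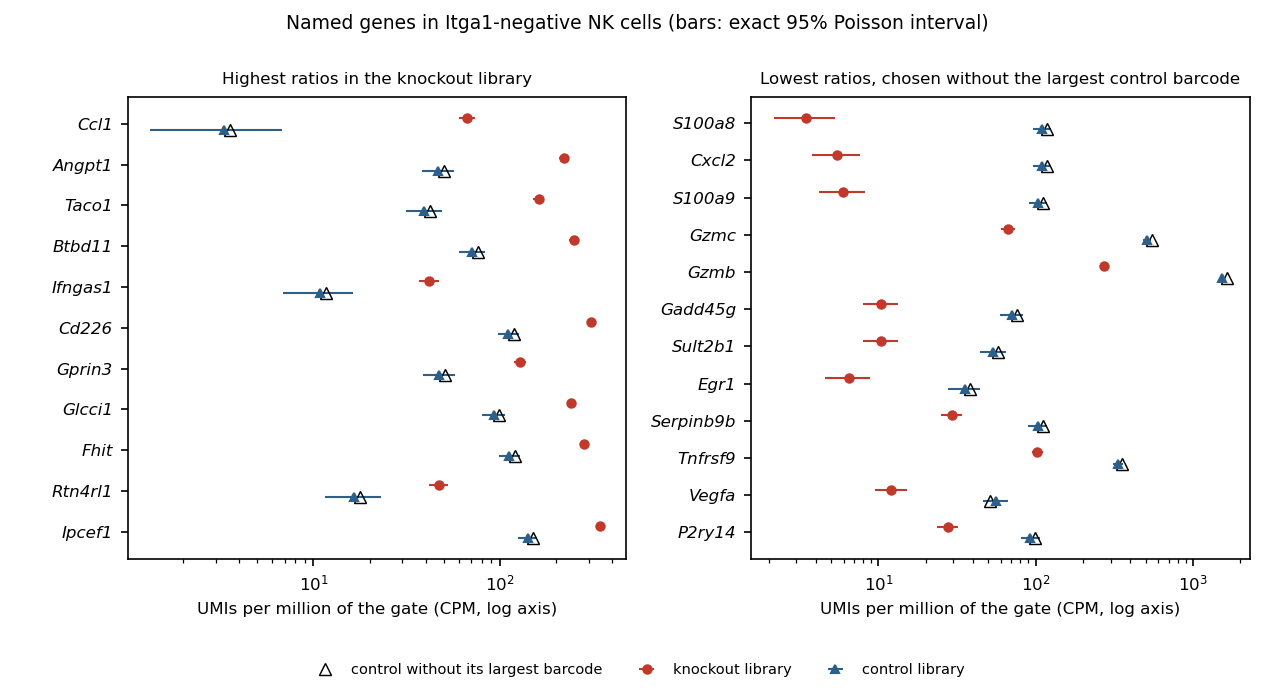
CPM in the gate (x, log axis) of the genes with the highest ratios (left) and the lowest ratios chosen without the largest control barcode (right), with the knockout library as circles, the control library as filled triangles, both with exact 95% Poisson intervals, and the control library without its largest barcode as open triangles. For these genes the open triangles lie on or near the filled ones, and Gzmb stood at 271 CPM in the knockout and 1533 CPM in the control library.

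How these RNAs were spread over cells was measured after each cell had been thinned to 4000 UMIs, which left 469 knockout and 174 control cells (35 and 43 were shallower). As a level of free RNA, the same share was taken in macrophage-gate cells of the same libraries at the same depth, 479 and 1000 cells. These had a C1q sum of at least 20 and no UMI of Ncr1 or Klrb1c, and the control set was the first 1000 of them. Barcodes with free RNA of these NK genes were thus left out, so this level may be too low for RNA of NK cells. Gzmb had a UMI in 32.8% (28.6 to 37.3) of the knockout cells and 67.8% (60.3 to 74.7) of the control cells, against 2.71% and 6.70% of macrophage-gate cells (46.4% and 74.2% of NK cells unthinned). Gzmc was found in 2.99% (1.64 to 4.96) of the knockout cells and 14.9% (10.00 to 21.1) of the control cells (macrophages 0% and 2.10%, unthinned 6.35% and 18.9%). For both granzymes more control cells were positive. The reverse held for Angpt1, with 40.3% (35.8 to 44.9) of the knockout cells and 17.8% (12.4 to 24.3) of the control cells (macrophages 0.626% and 0.2%, unthinned 50.2% and 22.1%). Itga2 had a UMI in 73.6% (69.3 to 77.5) of the knockout cells and 60.3% (52.7 to 67.7) of the control cells (macrophages 1.04% and 0.2%, unthinned 88.1% and 72.8%). Eomes was seen in 55.9% (51.2 to 60.4) of the knockout cells and 43.1% (35.6 to 50.8) of the control cells (macrophages 0.418% and 0.4%, unthinned 78.6% and 66.8%), and Tcf7 in 51.4% (46.8 to 55.99) of the knockout cells and 37.4% (30.2 to 45.00) of the control cells (macrophages 2.09% and 0%, unthinned 72.2% and 48.4%). These lay far above the macrophage level. Cxcr6 did not: 5.12% and 3.45% of NK cells against 3.55% and 2.60% of macrophage-gate cells (unthinned 9.13% and 5.99%).

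The share of Dct read as background in this gate. Dct was found in 2.13% of knockout and 33.9% of control NK cells, near the 3.97% and 27.3% of macrophage-gate cells (unthinned 5.36% and 58.1%), and the share in control NK cells was thus like that in control macrophages. C1qb, a macrophage gene that the gate limits, was in 1.07% and 16.7% of NK cells (unthinned 4.37% and 37.8%), against 97.7% and 99.2% of macrophage-gate cells. Mki67 was in 5.76% and 8.05% (unthinned 9.92% and 13.8%) and Top2a in 10.7% and 5.75% (unthinned 18.7% and 19.8%). Macrophage-gate cells were at 13.6% and 20.4% and at 11.1% and 21.00%. Those cells may hold these genes as their own RNA, so their shares are no measure of free RNA here. Whether the NK cells were cycling is thus not read from these shares in either direction. Ccl1 was in 0.853% and 0.575% of cells (macrophages 0.209% and 0.4%, unthinned 1.98% and 0.461%).

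**Figure D4:**
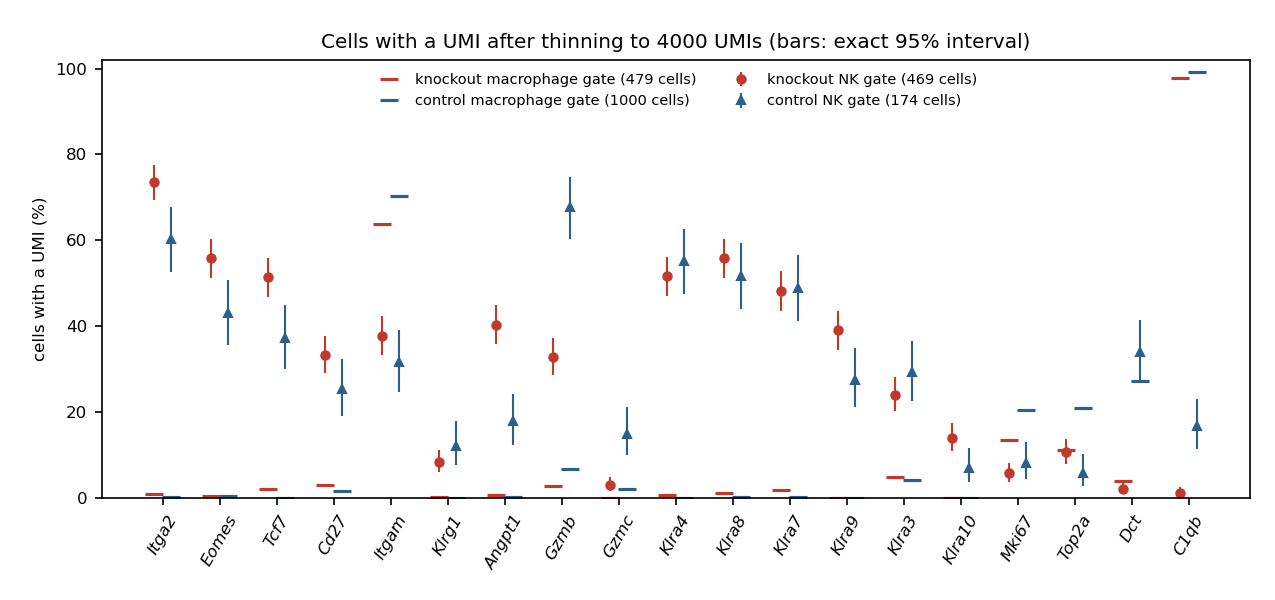
Share of cells with a UMI of each gene after thinning to 4000 UMIs (y, percent) in knockout (circles, 469 cells) and control (triangles, 174 cells) NK cells, with exact 95% intervals, and in macrophage-gate cells of the same libraries (dashes). Gzmb is the gene with the widest gap, at 32.8% and 67.8%, while the intervals overlap for Klra4, Klra7 and Klra8.

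Ly49 genes marked subsets of cells in both libraries. Klra4 had a UMI in 51.6% (46.97 to 56.2) of the knockout cells and 55.2% (47.5 to 62.7) of the control cells and Klra8 in 55.9% (51.2 to 60.4) of the knockout cells and 51.7% (44.04 to 59.4) of the control cells. Klra7 was seen in 48.2% (43.6 to 52.8) of the knockout cells and 48.9% (41.2 to 56.5) of the control cells. In each of these the intervals of the libraries overlapped, so that the higher summed level of Klra8 in the knockout gate was not matched by a detectable gap in positive cells at this depth. Macrophage-gate cells held at most 1.88% for these genes, and the unthinned shares were 52.4% and 55.8% for Klra4, 63.1% and 55.8% for Klra8 and 61.9% and 51.6% for Klra7. Klra9 was seen in 39.02% (34.6 to 43.6) of the knockout cells and 27.6% (21.1 to 34.9) of the control cells (unthinned 46.4% and 35.02%), Klra3 in 24.1% and 29.3% (macrophages 4.80% and 4.20%, unthinned 29.8% and 28.1%), Klra1 in 13.01% and 16.1% (unthinned 15.5% and 16.1%) and Klra10 in 14.1% and 6.90% (unthinned 26.8% and 16.1%). Klra2, at 1.07% and 1.72% of NK cells, was found in 46.1% and 40.6% of macrophage-gate cells and is no NK gene here (unthinned 2.78% and 5.53%). Counted over 11 Ly49 genes, 13.01% of knockout and 8.05% of control cells had none, and 53.3% (48.7 to 57.9) and 48.3% (40.6 to 55.96) had at least 3. The median cell had 3 and 2 genes with a UMI.

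Cd27 and Itgam (CD11b) order the maturation of mouse NK cells, from Cd27 alone through both to Itgam alone. The classes here rest on a detected UMI in thinned cells, where a transcript is often missed. Cd27 was in 62.3% of knockout cells unthinned and 33.3% thinned. The classes are thus classes of detection and do not measure these stages. Both had a UMI in 11.3% (8.58 to 14.5) of the knockout cells and 4.02% (1.63 to 8.11) of the control cells, Cd27 alone in 21.96% (18.3 to 25.99) of the knockout cells and 21.3% (15.4 to 28.1) of the control cells, Itgam alone in 26.4% (22.5 to 30.7) of the knockout cells and 27.6% (21.1 to 34.9) of the control cells and neither in 40.3% (35.8 to 44.9) of the knockout cells and 47.1% (39.5 to 54.8) of the control cells. The intervals overlapped in 3 of the 4 classes, and the class with both stood apart, on 53 and 7 cells. By gene, Cd27 was in 33.3% and 25.3% of cells (macrophages 3.13% and 1.60%, unthinned 62.3% and 38.2%) and Itgam in 37.7% and 31.6% (unthinned 57.1% and 48.4%). Itgam is itself a macrophage gene, found in 63.9% and 70.4% of macrophage-gate cells, and the part of free RNA in its share was not tested. Klrg1 was in 8.32% and 12.1% (macrophages 0.209% and 0%, unthinned 15.5% and 15.7%). The Fano factor, the variance of the thinned counts over cells divided by their mean, had a median of 1.18 over 5516 genes in the knockout gate and 1.16 over 5271 in the control gate. In the knockout gate the most variable genes were Il1b (55.7), Ccl4 (29.9), Gzmc (23.8), Ccl5, Gzma, Malat1, Xcl1, Kcnq5, Dscam and St6galnac3 (9.69). In the control gate they were S100a8 (54.8), S100a9 (54.1), Gzmc (38.6), Il1b, Gzmb (33.8), G0s2, Gzma, Ccl5, Ccl4 and Dct (18.3). Il1b, a cytokine gene of myeloid cells, had 80.4% and 64.2% of its UMIs in 1 barcode of each gate.

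Itga1-negative cells were then set against Itga1-positive cells passing the same other gates, in both libraries. Itga1-positive cells numbered 237 in the knockout library, 31.98% of its NK-gated barcodes, and 35 in the control library, 13.9%, with median depths of 10466 and 8590.0 UMIs. UMIs were summed per library and gate, and the 4 sums were compared with edgeR's quasi-likelihood test with library as a block, which leaves 1 residual degree of freedom and draws the spread mainly from other genes. Itga1 and the other gate genes were left out. At a Benjamini-Hochberg adjusted p under 0.05, 13 of 10832 genes (0.12%) were higher and 96 (0.886%) lower in Itga1-negative cells. Single barcodes bore on these counts, since 1 Itga1-positive barcode of each library also held 10 or more melanoma UMIs. In edgeR's test without these and the large Itga1-negative control barcode, 25 of 10476 genes (0.239%) were higher and 30 (0.286%) lower. The sums come from the same pair of libraries. These p-values rest on how the gate difference varied between these libraries and on the spread of other genes. They do not cover the spread between tumours. Without the library block the test made 0 calls (unadjusted p under 0.05 for 59 higher and 118 lower genes), and DESeq2 with the block called 8 higher and 69 lower. Both edgeR fits with the block shared 12 of the 13 higher genes but only 7 of the 96 lower ones.

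An Ly49 receptor and a membrane-bound protein were higher in Itga1-negative cells, in both fits. Klra4 (Ly49D) was at 1064 against 443 CPM in the knockout library and 818 against 346 CPM in the control library (log2 difference 1.28, adjusted p = 0.0185, and 1.001, adjusted p = 0.00311 without the melanoma-carrying barcodes). Basp1, the membrane-bound protein, was at 54.7 against 12.9 CPM in the knockout library and 126 against 26.6 CPM in the control library (log2 difference 2.17, adjusted p = 0.00185, and 2.07, adjusted p = 5.70e-04 without them). In both libraries the negative cells held more of each. Ccr7, the receptor for lymph node chemokines, was at 11.3 against 0.35 CPM in the knockout library and 17.5 against 0 CPM in the control library, with adjusted p = 0.0145 by edgeR, on few UMIs. Cmah, which makes a sialic acid form, was at 141 against 29.4 CPM in the knockout library and 62.5 against 26.6 CPM in the control library (log2 difference 1.93, adjusted p = 0.00895). Tnfrsf9 was at 103 against 53.9 CPM in the knockout library and 333 against 55.1 CPM in the control library (log2 difference 1.67, adjusted p = 0.0316). Further genes in the first fit were Crtam, G0s2, Serpinb9b, Abcb1b, As3mt, Grm8 and Gm11342. G0s2 belongs to the neutrophil set and had a Fano factor of 33.6 in the control gate. How far single barcodes set its call was not tested. Klra8 and Itga2 passed only without the melanoma-carrying barcodes, with log2 differences of 1.08 and 1.01 (adjusted p = 0.0546 and 0.0928 with all barcodes, 0.0205 and 0.0337 without). Eomes was at 254 against 139 CPM in the knockout library and 172 against 112 CPM in the control library and did not pass by edgeR (adjusted p = 0.226).

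Of the genes lower in Itga1-negative cells, those with the smallest p with all barcodes were Unc5c, Pde10a, Mt2, Met, Ifitm1 and Meis2 (edgeR adjusted p = 1.44e-04 each). Of these only Ifitm1 was also called without the melanoma-carrying barcodes. Unc5c, a netrin receptor, was at 0 against 21.3 CPM in the knockout library and 8.05 against 293 CPM in the control library, and at 3.05 against 3.02 CPM in the control library without them. Mt2, a metallothionein, had an adjusted p of 1 without them, and Unc5c, Pde10a, Met and Meis2 no longer passed the filter on low counts. Ifitm1, an interferon-induced membrane protein, was lower in both fits: 2.32 against 18.2 CPM in the knockout library and 23.7 against 323 CPM in the control library (log2 difference -3.45, adjusted p = 1.44e-04, and -3.91, adjusted p = 9.93e-07 without them). Inpp4b, the ILC1 marker, was at 179 against 771 CPM in the knockout library and 77.2 against 334 CPM in the control library (log2 difference -2.09, adjusted p = 6.01e-04, and -2.34, adjusted p = 6.44e-07 without them). S100a4, a calcium-binding protein of motile cells, was at 195 against 553 CPM in the knockout library and 106 against 309.7 CPM in the control library (log2 difference -1.50, adjusted p = 0.00605, and -1.75, adjusted p = 1.70e-05). Cxcr6, the receptor of tissue-resident lymphocytes, was at 13.4 against 56.7 CPM in the knockout library and 10.9 against 22.8 CPM in the control library (log2 difference -1.70, adjusted p = 0.0396, and -1.98, adjusted p = 0.00298). Ifitm2, Ifitm3 and Wdfy4 were the others lower in both. Il7r, Cd200r1, Tnfsf10, Tmem176a and Zfp683, residency and ILC1 genes, were lower by edgeR only without the melanoma-carrying barcodes, with adjusted p from 0.00132 to 0.0386. By list, residency and ILC1 genes had 0 higher and 2 lower of 21 with all barcodes, and 0 higher and 7 lower without the melanoma-carrying ones. Late maturation genes had 0 higher and 0 lower of 16 with all barcodes, and 0 higher and 1 lower without the melanoma-carrying ones, early ones 1 higher and 0 lower of 13 with all barcodes, and 1 higher and 1 lower without the melanoma-carrying ones, and Ly49 receptors 1 higher and 0 lower of 10 with all barcodes, and 2 higher and 0 lower without the melanoma-carrying ones. The medians over all genes were 0.00 and 0.01.

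**Figure D5:**
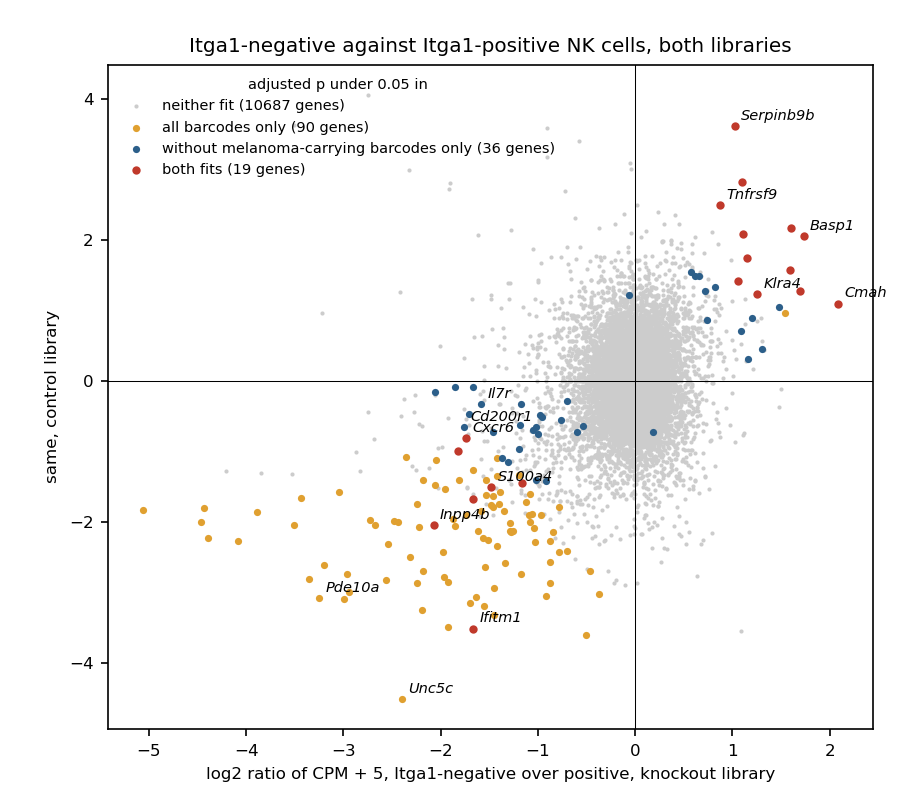
Log2 ratio of CPM plus 5, Itga1-negative over Itga1-positive NK cells, in the knockout library (x) and the control library (y), 1 point per gene tested, coloured by whether the adjusted p was under 0.05 with all barcodes, without melanoma-carrying barcodes, in both fits or in neither. Inpp4b and S100a4 lie at the lower left and Klra4 and Basp1 at the upper right, where both libraries have the same direction, while most genes called with all barcodes only lie at the lower left.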

How the data were processed

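The deposited values were counts, whole-number UMIs per gene and barcode, deposited by the authors. Per the file headers, Cell Ranger 7.2.0 wrote them, and the submitters' processing notes name mm10 as the build. The sources used here do not state the annotation or the use of strand. Gene spans and positions came from GENCODE vM21 (GRCm38), which holds 32158 of the 32285 gene identifiers (99.6%), and promoters from RefSeq (GRCm38.p6). The libraries held 9130 and 10882 barcodes with 127186298 and 208936136 UMIs, of which 95.3% and 86.5% of barcodes were kept.

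UMIs were summed over the gate per library, scaled to CPM and compared as log2 ratios of CPM plus 5, with no test, for genes that reached a mean of 10 CPM. Free RNA was subtracted as an alternative, as the profile of all kept cells in the share set by 21 macrophage and melanoma genes. The C1q genes that the gate limits were among these 21. Doublets stayed in, as the gate sets no limit: Scrublet (scanpy 1.11.5) marked 0% and 1.70% of kept barcodes at its own threshold, and the top 7.30% and 8.71% by score were removed as an alternative, 29 and 14 of them in the gate. Itga1 gates were compared with edgeR 4.0.16 (quasi-likelihood, TMM, filterByExpr, library as a block, Benjamini-Hochberg) and DESeq2 1.42.0 in R 4.3.3. The block was used because both gates come from the same library, and with 2 libraries no check of the pairing by correlation was possible. Other steps used python 3.11.15, numpy 2.4.6, scipy 1.17.1, pandas 2.3.3 and matplotlib 3.10.9. On simulated data, 200 of 200 genes changed 4-fold were recovered in the Itga1 comparison, with 7 false calls among 10597 genes. Between simulated libraries, 200 of 200 genes changed 3-fold were recovered, with 21 false calls past 1.5-fold among 8591 genes. The spread between tumours is not known here, so these counts give no rate of false calls for the real libraries.

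Named genes were the 12 highest and 12 lowest ratios among genes with at least 20 CPM and a level in the gate of at least 0.5 times that in other cells, the 4 most extreme genes below that ratio, up to 8 members per list by size of ratio and by level with 2 that differed least, the 6 smallest p in each direction of the Itga1 comparison with maturation and residency genes, and the 10 largest Fano factors. In the Itga1 comparison, the genes named beyond these were chosen after their values were seen, as were the printed promoters and both motifs. Some genes that these rules name are not reported here. The members and lists were chosen with earlier results of these data known. The removal of the large control barcode and of melanoma-carrying barcodes, and the shares of Angpt1, Ccl1, Dct, C1qb and Tcf7, were added after seeing the data.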

Additional observations from a re-analysis of the deposited data

How the results depend on the processing

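The main limits are 1 library per group, a control gate of 217 barcodes with fewer UMIs per cell, and RNA of other cells in the control gate. Over all alternatives 69 list medians moved beyond the set tolerance and 417 did not. Of the ratios of 179 genes, 879 of those recomputed moved and 28, of genes past 1.5-fold in the text, took the other direction. The cause was not tested beyond the number of cells left. The share ratio between the libraries was 1.75 with 6 T cell genes in the gate, 3.08 with cells thinned before gating and 1.84 with C1q-low barcodes as the total. Genes at least 1.5-fold higher numbered 1770 with 6 T cell genes in the gate, 391 with a pseudocount of 20 CPM, 514 with median-ratio scaling and 384 when centred on gene span. Genes at least 1.5-fold lower numbered 1343 with 6 T cell genes, 422 with free RNA subtracted and without the large control barcode, 406 with a pseudocount of 20 CPM and 1190 with no filter. The gate on 6 T cell genes, with 71 and 44 cells, gave the other direction as log2 ratio, for 22 genes past 1.5-fold in the text, in Bcl2a1b 0.36, Cd27 -0.12, Chchd10 0.15, Cxcl2 0.15, Dusp1 1.84, Egr1 0.27, Hmgcs1 0.10, Ifit1 2.15, Ifit3 0.59, Ikzf3 -0.19, Il18r1 -0.19, Il2ra 0.52, Klf12 -0.066, Msmo1 0.79, Myc 0.39, Nr4a1 0.86, Runx1 -0.14, S100a8 2.71, S100a9 0.80, Spn -0.50, Stat4 -0.0048 and Tnf 1.87. It also did so for 21 genes within 1.5-fold, Cdk1 0.34, Cma1 0.15, Cmklr1 0.17, Cxcr6 -0.62, Entpd1 0.19, Eomes -0.17, Gbp2 0.24, Itga2 -0.067, Klra1 1.14, Klra4 -0.59, Klra9 -0.33, Klrb1a -0.89, Ltb -0.0026, Mki67 -0.078, Parp14 0.098, Slc38a1 -0.42, Smad7 -0.65, Tap1 0.13, Tmem176b 1.98, Trdc -0.021 and Tyrobp 0.013. Under other alternatives the direction changed, of genes past 1.5-fold, for Ckb (1.32, free RNA subtracted), Cx3cr1 (0.98, thinned to 4000 UMIs before the gates), Cxcl9 (-0.61, thinned to 4000 UMIs before the gates), Mgll (0.10, free RNA subtracted without the large control barcode), Syngr1 (0.19, free RNA subtracted without the large control barcode) and Tnf (0.19, doublets removed). Genes within 1.5-fold took the other direction in 0 to 17 cases per other alternative, 17 of them with free RNA subtracted, where Cdk1 (1.962), Entpd1 (0.59), Gbp2 (2.14) and Havcr2 (1.02) passed 1.5-fold. Of 125 genes past 1.5-fold, 29 no longer were so on that side with free RNA subtracted, or 23 with the large control barcode also left out. In the gate on 6 T cell genes these were 46, and without the large control barcode alone 16.

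Between Itga1-negative and Itga1-positive cells, the fit with no replicate block (library left out as the pairing) called 0 genes higher and 0 lower by edgeR, with 59 and 118 at an unadjusted p under 0.05. With a C1q sum under 5 edgeR called 0 and 0 (165 and 137 unadjusted), but 31 and 34 when melanoma-carrying barcodes were also left out, and 25 and 30 with those left out alone. Without the filter on low counts the calls were 53 and 225, in cells thinned before gating 21 and 23, and higher genes by DESeq2 8. With Itga1 of at least 2 as positive 179 genes were lower. Leaving out a library leaves no residual degrees of freedom, so each library's own values stand in the text with no test.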
